A study of Mus musculus with 6 samples.

Results

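The genes described here are 9 transcription factors that direct the formation of granulocytes and monocytes, *Spi1*, *Cebpa*, *Cebpb*, *Cebpd*, *Cebpe*, *Gfi1*, *Irf8*, *Irf5* and *Klf4*. They were chosen by name and matched to their mouse Ensembl identifiers, and all 9 were found among the 38293 genes counted in each library. RNA was sequenced from FL (fetal liver) Lin-cKit+ cells, sorted for c-Kit and for the absence of lineage antigens to enrich stem and progenitor cells, of C57BL/6 embryos at embryonic day 14.5. There were 3 libraries from embryos labelled wild-type for hnRNP L (wt replicates 1 to 3) and 3 from hnRNP L knock-out embryos (hnRNP L deficient replicates 1 to 3), each made from a single embryo. According to the study's methods the deficient embryos were VavCre+ hnRNP L fl/fl, in which a Cre recombinase under the Vav promoter removes the floxed alleles mainly in hematopoietic cells, so that hepatocytes of the liver keep the gene. The study names the wt cells of its RNA-Seq as hnRNP L fl/fl, that is with floxed alleles, and whether they carried the Cre transgene is not given in the sources used here. Replicate numbers follow the order of deposition and pair nothing, and 3 values given for a group are always those of replicates 1, 2 and 3 in that order.

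PU.1, encoded by *Spi1*, and C/EBP alpha, encoded by *Cebpa*, are needed to make the common progenitors of granulocytes and monocytes. From there C/EBP epsilon and GFI1 drive granulocyte maturation, GFI1 acting as a repressor of monocytic genes, whereas IRF8 and KLF4 drive the monocyte fate and IRF5 the inflammatory program of macrophages. C/EBP beta and C/EBP delta act in both lineages and take over when inflammation or infection demands more myeloid cells. For description the members were grouped as granulocyte regulators (*Cebpa*, *Cebpe*, *Gfi1*), monocyte regulators (*Irf8*, *Irf5*, *Klf4*) and regulators of both lineages or of inflammation (*Spi1*, *Cebpb*, *Cebpd*). *Cebpa* was placed with the granulocyte regulators although its product is also needed for the progenitors of both lineages.

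The factors also act on each other's genes, and the part of the promoter just before the start of transcription is where their binding motifs would be searched first. RefSeq promoters of GRCm38.p6, from 250 bases before to 50 after a gene's start, were at hand for 6 of the 9 members in 8 entries, and *Spi1*, *Cebpd* and *Cebpe* had none. On both strands, the C/EBP motif TTGCNNAA was found in 1 of the 8 entries and in 10.8% of 32851 promoters, and the GFI1 motif AAATCAC in 1 entry and 3.2% of promoters. The PU.1 motif GAGGAA was found in 0 entries and 28.3% of promoters. Single matches in 8 entries are too few to compare with these shares over all promoters. Both matches are shown, with the motif in capitals, a C/EBP motif at *Gfi1* and a GFI1 motif at *Irf8*, and whether the factors bind there was not tested:
Gfi1, chr5:107725930-107725959, minus strand, C/EBP motif 143 bases before the RefSeq start: cgaaggtaggtTTGCTGAActgctgtgcct
Irf8, chr8:120736171-120736200, plus strand, GFI1 motif on the opposite strand 176 bases before the RefSeq start: gacgtgcaaaaGTGATTTctcggaaagaga
The RefSeq start used for *Gfi1* lies inside the GENCODE gene model given below, which begins farther upstream, so that its window falls within that model. Such a match is a description of the letters, and the motifs do not overlap one another.

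*Hnrnpl* itself, the deleted gene, measured 552, 531 and 528 CPM (the reads on a gene scaled to a common library size) among wt embryos against 242, 288 and 270 CPM among deficient embryos. The groups did not overlap, with a log2 fold change of -1.01 (SE 0.088) and an edgeR adjusted p = 0.0072. The libraries held between 55952160 and 76157226 reads on genes, so that 3 reads correspond to between 0.0402 and 0.054 CPM. Such a floor covers counting error only, whereas the standard errors of edgeR also take in the spread between embryos. The tissue label reads whole embryo, while the source label names fetal liver cells, and the measured markers were those of a progenitor fraction with *Kit* between 325 and 656 CPM. Markers of hepatocytes were nevertheless present and summed to between 106 and 227 CPM in wt and between 20.5 and 69.7 CPM in hnRNP L deficient libraries. All 6 of these genes were lower in every deficient library than in any wt library, against 22.7% of all genes tested. Of the 6, only *Ttr* was called lower at an edgeR adjusted p under 0.05. The lineage antibodies of the FL sort held none against CD11b, the product of *Itgam*, according to the study's methods.

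The 3 granulocyte regulators had lower means in hnRNP L deficient cells, 0 of them passed the edgeR test at an adjusted p under 0.05 (1, *Cebpa*, at an unadjusted p under 0.05 and in DESeq2 and limma-voom), and for *Gfi1* and *Cebpe* the groups overlapped. *Cebpa*, the factor of the earliest step (ENSMUSG00000034957, chromosome 7, 35119293 to 35121928, plus strand, GRCm38), measured 12.9, 66.4 and 23.0 CPM among wt embryos against 6.26, 9.75 and 8.64 CPM among deficient embryos. Every deficient library was below every wt library, with wt replicate 2 far above the other wt embryos. At -2.05 (SE 0.63), where SE is the standard error of the log2 fold change, the difference did not pass the test over all genes (edgeR adjusted p = 0.072). *Gfi1*, the repressor (ENSMUSG00000029275, chromosome 5, 107716657 to 107726036, minus strand), measured 4.36, 76.8 and 12.7 CPM among wt embryos against 2.49, 9.46 and 9.18 CPM among deficient embryos. The groups overlapped, since wt replicate 1 was lower than deficient replicates 2 and 3, and the log2 fold change of -2.15 had an SE of 1.2 (adjusted p = 0.25). *Cebpe*, which acts latest and switches on the genes of the secondary granules (ENSMUSG00000052435, chromosome 14, 54710360 to 54712174, minus strand), measured 2.36, 41.5 and 4.73 CPM among wt embryos against 1.01, 5.43 and 6.60 CPM among deficient embryos. Here both deficient replicates 2 and 3 exceeded wt replicates 1 and 3, and the log2 fold change was -1.89 with an SE of 1.3 (adjusted p = 0.33). In bulk RNA of this kind, fewer cells that express a factor and less of its RNA per cell cannot be told apart.

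The 3 monocyte regulators were each lower in every hnRNP L deficient library than in any wt library, and 2 of them, *Irf8* and *Irf5*, were called by edgeR. Over all genes tested, 22.7% were lower in every deficient library than in any wt library, and 9.85% were called lower. *Irf8*, the main factor of monocyte and dendritic cell fate (ENSMUSG00000041515, chromosome 8, 120736358 to 120756694, plus strand), measured 11.4, 55.9 and 23.4 CPM among wt embryos against 2.03, 4.35 and 4.80 CPM among deficient embryos. Its mean in the deficient libraries was 12.3% of that in wt, and it fell by 3.02 on the log2 scale (SE 0.68, adjusted p = 0.034 in edgeR). *Irf5* (ENSMUSG00000029771, chromosome 6, 29526625 to 29541871, plus strand) measured 2.86, 15.3 and 6.06 CPM among wt embryos against 0.854, 1.64 and 1.14 CPM among deficient embryos. It fell by 2.74 on the log2 scale (SE 0.63, adjusted p = 0.031). *Klf4*, a zinc finger factor that acts downstream of IRF8 in monocytes (ENSMUSG00000003032, chromosome 4, 55527143 to 55532466, minus strand), was rare, with 0.702, 3.65 and 0.674 CPM among wt embryos against 0.0311, 0.184 and 0.348 CPM among deficient embryos. The latter stood for 2, 12 and 26 reads, so that replicate 1 lay below the floor of 3 reads. Its log2 fold change of -3.13 had an SE of 0.98 and missed the threshold (adjusted p = 0.065).

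Of the 3 members that act in both lineages or in inflammation, 0 were called by edgeR (1, *Cebpd*, at an unadjusted p under 0.05 and in DESeq2 and limma-voom), and their groups overlapped for *Spi1* and *Cebpb*. *Spi1*, the most abundant member per base of exon in both groups (ENSMUSG00000002111, chromosome 2, 91082390 to 91115756, plus strand), measured 14.9, 110 and 31.2 CPM among wt embryos against 8.11, 15.8 and 15.8 CPM among deficient embryos. The groups overlapped by the small margin between wt replicate 1 and deficient replicates 2 and 3, and the log2 fold change was -1.97 (SE 0.80, adjusted p = 0.14). *Cebpd*, an acute-phase factor (ENSMUSG00000071637, chromosome 16, 15887286 to 15891031, plus strand), measured 2.39, 13.5 and 3.76 CPM among wt embryos against 1.10, 1.85 and 1.58 CPM among deficient embryos. Its groups did not overlap, with a log2 fold change of -2.11 (SE 0.66, adjusted p = 0.065). *Cebpb*, the factor of emergency granulopoiesis (ENSMUSG00000056501, chromosome 2, 167688915 to 167690418, plus strand), measured 3.65, 15.4 and 5.41 CPM among wt embryos against 4.46, 5.77 and 6.00 CPM among deficient embryos. Without the high value of wt replicate 2 the groups were interleaved, and the log2 fold change was -0.59 (SE 0.51, adjusted p = 0.44).

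**Figure D1:**
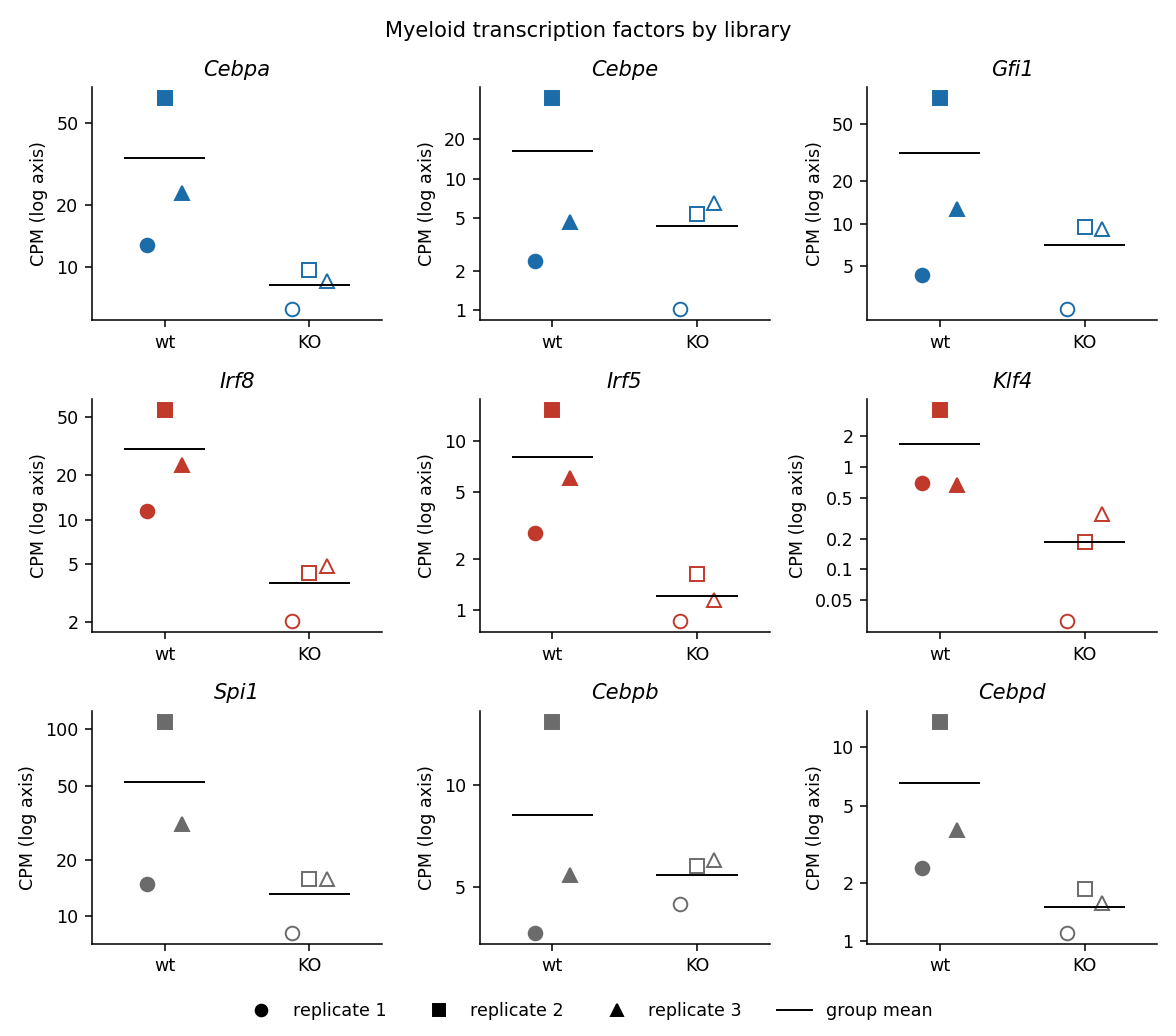
CPM of each factor on log axes, with wt as filled and hnRNP L deficient (KO) as open symbols, 1 symbol per library (circle, square and triangle for replicates 1, 2 and 3) and a line at the group mean. Blue marks granulocyte regulators, red monocyte regulators and grey the others, and wt replicate 2 is the highest wt library in all 9 panels.

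Of the 9 members, 2 were called lower and 0 higher at an edgeR adjusted p under 0.05, against 9.85% of all 14396 genes tested called lower and 9.32% called higher. At an unadjusted p under 0.05, 5 members were lower, against 20.1% of all genes, and 0 were higher, as in DESeq2 and limma-voom. In 5 members every deficient library was below every wt library, against 22.7% of all genes, with exact permutation p = 0.1 (two-sided), the smallest that 3 against 3 libraries allow. The median log2 fold change was -2.11 over the 9 members and -0.026 over all genes tested. With all libraries 8 members were lower by over 2-fold, a count for which the share of all genes was not taken. Of these *Spi1*, *Gfi1* and *Cebpe* fell short of 2-fold without wt replicate 2, at -0.80, -0.28 and 0.29.

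The members varied widely between embryos and, like most genes, more so among wt embryos. The SD of log2(CPM + 0.1) was larger over the 3 wt embryos than over the 3 hnRNP L deficient embryos in 9 of 9 members, as it was in 82.1% of all genes. The members' median SD was 1.27 in wt and 0.55 in hnRNP L deficient embryos, where the medians over all genes were 0.23 and 0.09. *Cebpe* and *Gfi1* varied most, with SDs of 2.13 and 2.08 in wt, above 99.4% and 99.3% of all genes, and a difference of 17.6-fold between the highest and the lowest wt library for each. *Spi1* differed by 7.36-fold between wt embryos and the 6 other members by 4.2-fold to 5.63-fold. Among the hnRNP L deficient embryos *Cebpe* and *Gfi1* again had the largest SDs of the members, at 1.42 and 1.08, and differed by 6.54-fold and 3.81-fold. *Klf4* differed by 11.2-fold there, on 2 to 26 reads. Without wt replicate 2 the wt spread was the larger in 7 of 9 members, the exceptions being *Cebpe* and *Klf4*.

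The order of the embryos was shared by the members. Wt replicate 2 was the highest wt library in 9 of 9 members, against 39.9% of all genes, and wt replicate 1 the lowest in 8 of 9, against 37.8%. Only *Klf4* had its lowest wt value in replicate 3, by 0.674 against 0.702 CPM. In hnRNP L deficient embryos replicate 1 was the lowest in 9 of 9 members, against 39.8% of all genes. The members share each library, so these counts describe the libraries and are not independent of each other. In the labels the embryo numbers of deficient replicates 2 and 3 share their first part, and so do those of wt replicate 1 and deficient replicate 1, without a word on what it stands for. Between the latter pair deficient replicate 1 was the lower in 8 of 9 members, with log2 differences of -2.42 for *Irf8*, -2.61 for *Klf4* and -1.63 for *Irf5* against -1.03 for *Cebpa*, -1.15 for *Cebpe* and -0.79 for *Gfi1*, and 0.28 for *Cebpb*.

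**Figure D2:**
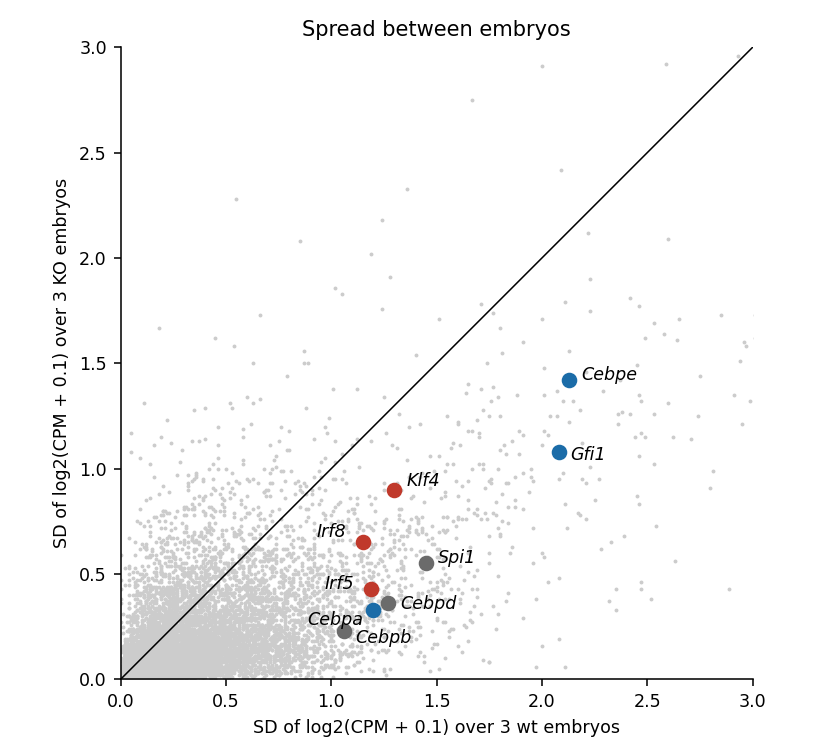
SD of log2(CPM + 0.1) over the 3 hnRNP L deficient (KO) embryos against that over the 3 wt embryos, for all genes tested (grey) and the 9 factors (blue granulocyte, red monocyte, grey other regulators), with the line of equal spread. All 9 factors lie below the line, *Cebpe* and *Gfi1* farthest to the right, and 25 genes beyond an SD of 3 are outside the axes.

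When wt replicate 2 was left out, the medians of the granulocyte and the monocyte regulators lay farther apart, a difference that was not tested. The calls did not divide by class. The log2 fold changes of *Irf8* and *Irf5* were then -2.22 and -1.88, and both were called (adjusted p = 0.017 for each, edgeR). *Klf4* stood at -1.85 (SE 0.75, adjusted p = 0.12) and was not called. Of the granulocyte regulators *Cebpa* was then called, at -1.13 (SE 0.27, adjusted p = 0.025). *Gfi1* stood at -0.28 (SE 0.71) and *Cebpe* at 0.29 (SE 0.77), with adjusted p = 0.81 for both. These 3 calls compare with 12.7% of all genes called lower in the same fit. *Spi1*, *Cebpd* and *Cebpb* stood at -0.80, -1.03 and 0.25 (adjusted p = 0.21, 0.051 and 0.46). The median was -0.28 over the granulocyte regulators, -1.88 over the monocyte regulators and -0.008 over all genes tested. The calls of *Irf8* and *Irf5* were lost when wt replicate 3 or any hnRNP L deficient replicate was left out, with adjusted p between 0.065 and 0.13. Of 14659 to 14845 genes tested in those 4 fits between 0 and 2 were called lower, a share of 0% to 0.0135%. Without wt replicate 1, 6 members were called lower, against 16.8% of all genes. With all 6 libraries DESeq2 called 5 members lower, against 15.5% of all genes, limma-voom 4, against 19.3%, and edgeR without a filter on low counts 1, against 5.71%.

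**Figure D3:**
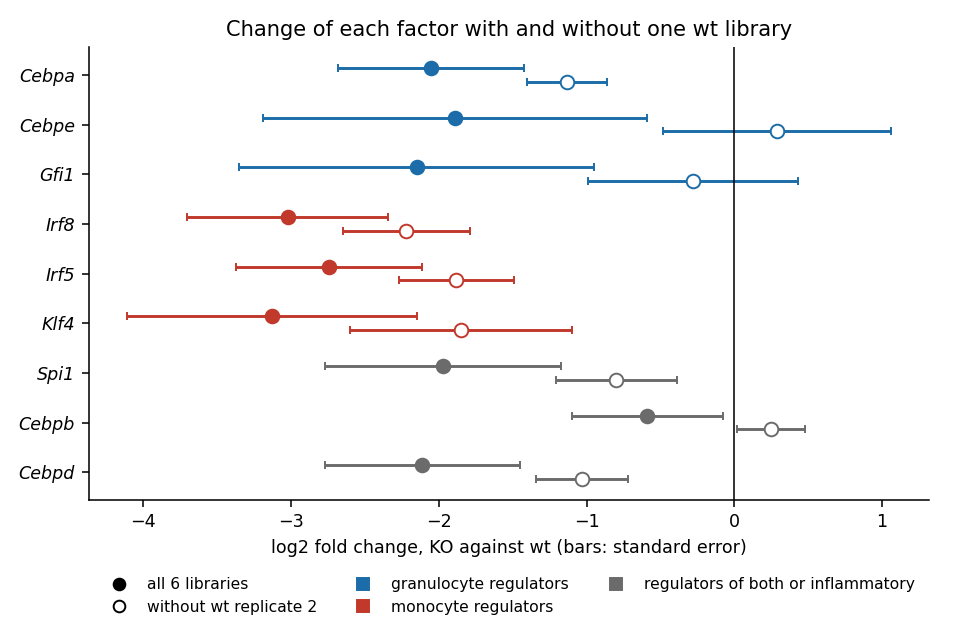
log2 fold change of each factor, hnRNP L deficient (KO) against wt, with all 6 libraries (filled) and without wt replicate 2 (open). Bars are 1 standard error, derived from the edgeR F statistic. Without that library *Cebpe* and *Cebpb* are on the other side of 0, and *Irf8* and *Irf5* remain at -2.22 and -1.88.

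The balance between the lineages was taken within each library, as the mean log2(CPM + 0.1) of *Cebpa*, *Cebpe* and *Gfi1* minus that of *Irf8*, *Irf5* and *Klf4*. It was 0.79, 2.01 and 1.23 in wt replicates 1 to 3 and 2.03, 2.63 and 2.55 in hnRNP L deficient replicates 1 to 3. The means were 1.34 ± 0.62 and 2.40 ± 0.32 (SD, n = 3 each), a difference of 1.06, and the groups were apart only by the distance between 2.01 and 2.03. Wt replicate 2, with the highest level of all members, also had the most granulocytic balance of the wt embryos. With a pseudocount of 1 CPM the difference was 0.45, and the groups then overlapped, with wt replicate 2 above every deficient library. Between hnRNP L deficient replicate 1 and wt replicate 1, the difference was 1.24. Both comparisons of this pair were added after the data were seen and have no test.

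Each pair of a granulocyte and a monocyte regulator was compared in the same way. The log2 ratio was higher on average in hnRNP L deficient cells in 9 of 9 pairs, by between 0.64 and 1.59, but these pairs share their genes. The ratio of *Cebpa* to *Irf8* was 0.18, 0.25 and -0.02 in wt and 1.57, 1.15 and 0.84 in hnRNP L deficient libraries, with no overlap and little spread in wt. The ratio of *Cebpa* to *Irf5* was 2.13, 2.11 and 1.91 in wt and 2.74, 2.50 and 2.82 in hnRNP L deficient libraries, again with no overlap. In these pairs the exact permutation p was 0.1, the smallest possible, and the Benjamini-Hochberg adjusted value over the 9 pairs was 0.2. Both pairs hold *Cebpa*, whose product is also needed for the progenitors of both lineages. A grouping with *Cebpa* outside the granulocyte regulators was not tried. The other 7 pairs overlapped, 6 of them with *Cebpe* or *Gfi1*, whose SDs over wt embryos, 2.13 and 2.08, were above the 1.15 to 1.30 of the monocyte factors.

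**Figure D4:**
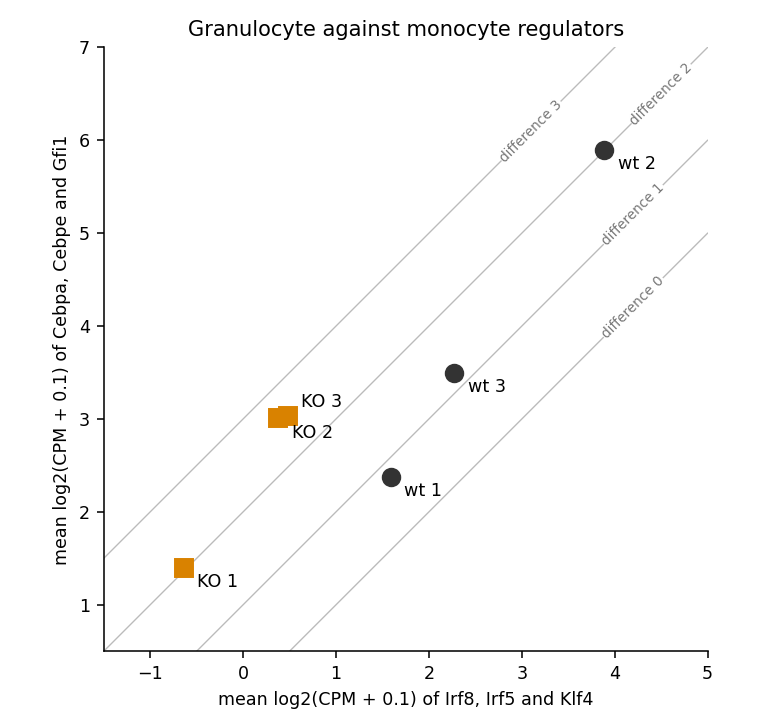
Mean log2(CPM + 0.1) of the granulocyte regulators against that of the monocyte regulators in each library, wt as circles and hnRNP L deficient (KO) as squares, with grey lines of equal difference. The KO libraries lie at differences of 2.03 to 2.63 and the wt libraries at 0.79 to 2.01.

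Levels per kilobase of exon (RPKM) rank the members against each other. In wt, *Spi1* was highest at 19.3 RPKM on average, followed by *Cebpe* at 13, *Cebpa* at 12.9, *Gfi1* at 9.83, *Cebpb* at 5.41, *Irf8* at 4.28, *Irf5* at 2.78, *Cebpd* at 1.75 and *Klf4* at 0.55. All neighbours in this order overlapped in their range over the 3 embryos. In hnRNP L deficient cells the order was *Spi1* at 4.92 RPKM, *Cebpb* at 3.60, *Cebpe* at 3.50, *Cebpa* at 3.12, *Gfi1* at 2.21, *Irf8* at 0.528, *Irf5* at 0.417, *Cebpd* at 0.404 and *Klf4* at 0.0615. Here 2 steps did not overlap, that from *Gfi1* to *Irf8*, which parts the granulocyte from the monocyte regulators, and that from *Cebpd* to *Klf4*. By these means *Cebpb* stood below *Cebpe* in wt and above it in deficient cells, but the order held in 2 of 3 wt and in 1 of 3 deficient libraries.

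Reads on single exons were compared in 5 libraries, those of all 3 wt embryos and of deficient replicates 2 and 3. Of 80 exon bins of the members 64 were tested, and 0 were called at an adjusted p under 0.05 with diffSpliceDGE, against 0.0288% of 176996 bins. At an unadjusted p under 0.05 there was 1 member bin, against 1.03% of all bins, and no alternative tool or library set called any. *Cebpa* and *Cebpb* have a single bin and cannot be tested for usage. The fall of *Irf8* was seen along the whole gene, its 17 tested bins keeping between 8.16% and 18.5% of their wt level. For *Irf5* 14 of 15 bins kept between 7.02% and 28.1%. Bin 18 of *Irf5*, near its last bin, kept 78.6%, with 45, 44 and 35 reads in wt replicates 1 to 3 and 31 and 49 reads in hnRNP L deficient replicates 2 and 3 (usage change of 2.10 on the log2 scale, unadjusted p = 0.038 and adjusted p = 1 in diffSpliceDGE). The bin thus held between 31 and 49 reads in all 5 libraries while other bins of the gene varied with the embryo. It made up 13.8%, 2.53% and 4.18% of the reads on all *Irf5* bins in wt and 13.8% and 23.9% in deficient replicates 2 and 3, so that the groups met at 13.8%. *Irf5* shares 411 exon bases, 14.1% of its own, with *Tnpo3* on the opposite strand, which had between 12880 and 19647 reads per library, and the strand option of the counting is not given in the sources used here. Whether the reads of bin 18 come from *Tnpo3* was not tested.

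**Figure D5:**
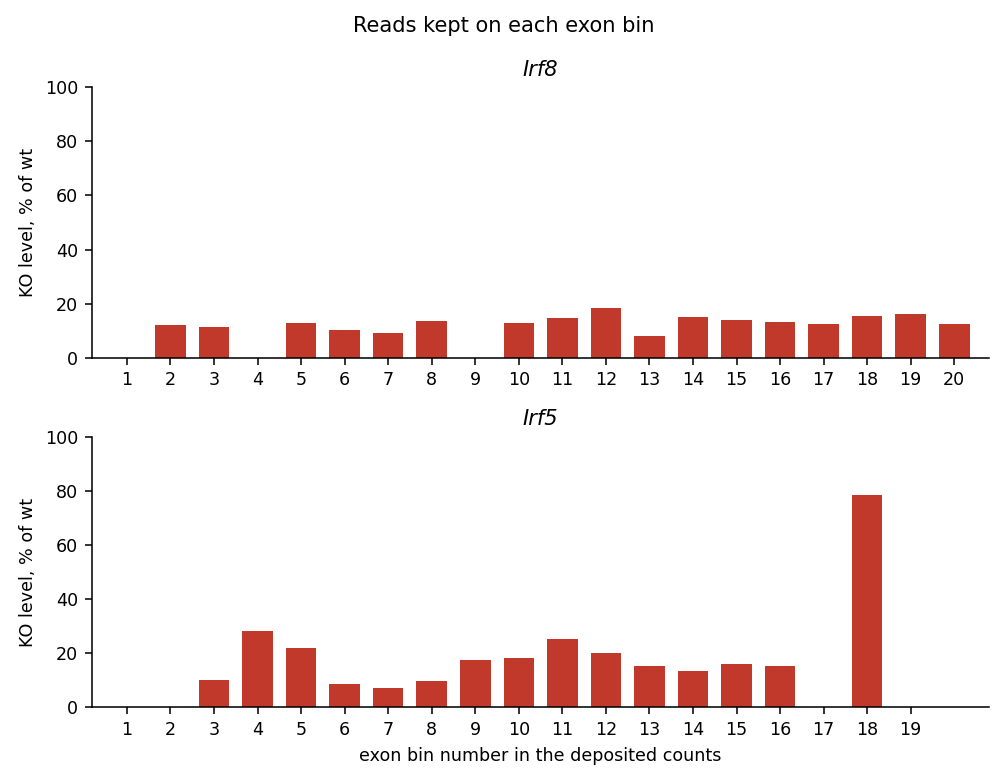
Level in hnRNP L deficient (KO) replicates 2 and 3 as a percent of the 3 wt libraries, for each exon bin of *Irf8* and *Irf5* with a mean of at least 10 reads. Bins without a bar held fewer reads, the bins of *Irf8* are between 8.16% and 18.5%, and bin 18 of *Irf5* stands at 78.6% where the other *Irf5* bins are at 28.1% or less.

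Other members also share exon bases with a gene on the opposite strand. *Cebpb* shares 20.7% of its exon bases with *Tmem189*, *Cebpd* 15.0% with *Spidr*, *Gfi1* 3.17% with *A430072P03Rik* and *Cebpa* 1.93% with *Gm45091*. With the strand option not known, the reads of such partners on the shared bases cannot be told apart. *Irf8* lies within the same-strand gene model *Gm20388* without a shared exon base, and *Spi1*, *Cebpe* and *Klf4* overlap no gene.

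Of the other IRF genes tested, 2 of 6 were called lower and 0 higher by edgeR (1 higher at an unadjusted p under 0.05 and in DESeq2, 0 in limma-voom). They were *Irf1*, an interferon-induced activator, from 13.1 ± 9.00 to 3.29 ± 0.273 CPM (SD, n = 3 each, adjusted p = 0.034), and *Irf2*, its counterpart, with a log2 fold change of -0.35 (adjusted p = 0.038). *Irf3* and *Irf9*, the most abundant of those not called, had log2 fold changes of 0.17 and 0.03. Of the other KLF genes 1 of 13 was called lower and 0 higher by edgeR, where DESeq2 and limma-voom each called 4 lower and 1 higher, as many as had an unadjusted p under 0.05 in edgeR. The 1 called by edgeR was *Klf13* at -0.46 (adjusted p = 0.05 after rounding), while *Klf1*, the erythroid factor, stood at 0.31 (adjusted p = 0.16) and *Klf16* at 0.40 (adjusted p = 0.057). The C/EBP genes *Cebpg* and *Ddit3* at 0.09 and 0.41, *Gfi1b* at 0.05, and *Spib* and *Spic* at 0.79 and -1.12 were not called by edgeR (adjusted p between 0.11 and 0.85). Of these 5 genes 1 was higher at an unadjusted p under 0.05, *Ddit3*, 0 were called by DESeq2 and 2 by limma-voom. Over all genes, as above, 9.85% were called lower and 9.32% higher.

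Partners and further myeloid regulators were called lower in 6 and higher in 2 of 26 genes tested by edgeR, against 9.85% and 9.32% of all genes. Their median log2 fold change was -0.53. *Runx1*, which acts upstream of *Spi1*, measured 76.7, 111 and 87.4 CPM among wt embryos against 51.8, 46.5 and 44.6 CPM among deficient embryos (log2 fold change -0.95, standard error 0.14, adjusted p = 0.014). *Zeb2*, *Trib2*, *Tcf4*, *Etv6* and *Zbtb16* were also called lower, with log2 fold changes between -0.99 and -0.33. *Egr1*, a factor that with its corepressor NAB2 favours the macrophage over the neutrophil fate, measured 2.20, 0.50 and 2.19 CPM among wt embryos against 25.6, 22.6 and 30.0 CPM among deficient embryos (log2 fold change 4.00, standard error 0.55, adjusted p = 0.014), and *Nab2* was called higher as well (log2 fold change 3.46). The abundant *Myb* and *Rcor1* stood at -0.17 and -0.06 and were not called.

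Downstream genes of the 2 lineages were listed as effectors. Of 20 granulocyte effector genes 0 were called by edgeR (1 lower at an unadjusted p under 0.05 and 1 each in DESeq2 and limma-voom), with a median log2 fold change of -1.58. Of 19 monocyte effector genes tested 5 were called lower and 0 higher by edgeR, against 9.85% and 9.32% of all genes, with a median of -2.65. Those called were *Csf1r*, the receptor for M-CSF, at -3.24, *Ly86* at -3.67, *Ccr2*, the chemokine receptor of monocytes, at -3.01, *Ms4a6c* at -3.63 and *Tlr2* at -2.14 (adjusted p between 0.028 and 0.047). *F13a1* and *Cst3*, the most abundant of those not called, stood at -3.13 and -0.90 (adjusted p = 0.068 and 0.14). Among granulocyte genes *Mpo* and *Prtn3*, enzymes of the primary granules, stood at -2.48 and -2.50 (adjusted p = 0.15 and 0.23). Summed over the list, granulocyte effectors measured 621, 9810 and 1590 CPM among wt embryos against 267, 1190 and 1280 CPM among deficient embryos, and monocyte effectors 147, 1130 and 302 CPM against 73.1, 156 and 164 CPM. Without wt replicate 2 the median over the granulocyte effectors was 1.42 and that over the monocyte effectors -0.82. In that fit 5 of the monocyte and 1 of the granulocyte effectors were called lower, against 12.7% of all genes. Over the relatives, partners and effectors together 14 genes were called lower and 2 higher with all libraries, where 9.85% and 9.32% of all genes were. Without wt replicate 1 they were 31 and 4, where 16.8% of all genes were called lower. They were 0 and 0 without wt replicate 3 or any of the deficient replicates, fits in which few genes were called at all.

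Of the 20 granulocyte effectors 14 had a negative log2 fold change, *Camp* among them at -0.39. *Ltf* and *Ngp* were among those with a positive one, at 2.49 and 2.21. *Ltf*, the lactoferrin of secondary granules, measured 1.21, 9.66 and 3.81 CPM among wt embryos against 0.823, 36.8 and 44.6 CPM among deficient embryos, and *Ngp* 1.80, 19.8 and 5.67 CPM against 1.06, 55.0 and 70.3 CPM. *Camp* had 0.396, 81.5 and 5.42 CPM against 0.87, 27.7 and 38.1 CPM. In deficient replicates 2 and 3 *Ltf* and *Ngp* were above every wt embryo, and *Camp* was above wt replicates 1 and 3 but below wt replicate 2. These 3 genes were named after their values were seen and were not called (adjusted p = 0.27, 0.36 and 0.91). In the same deficient embryos *Cebpe* exceeded wt replicates 1 and 3, and *Itgam* measured 6.05, 47.4 and 9.61 CPM among wt embryos against 2.24, 10.1 and 10.7 CPM among deficient embryos. The part of mature granulocytic cells in these differences was not tested.

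Markers of other cell types moved with some of these results. Stem and progenitor markers summed to between 606 and 905 CPM in wt and between 405 and 443 CPM in hnRNP L deficient libraries, most of it *Kit*. By edgeR 6 of 10 were called lower and 0 higher, against 9.85% and 9.32% of all genes. *Kit*, used for the sort, was among those lower, at -0.62 (adjusted p = 0.04). While 8 of the 10 had a negative log2 fold change, *Slamf1* and *Procr* stood at 0.54 and 0.46 and were not called. *Slamf1* was higher in every deficient library than in any wt library. Lymphoid markers summed to between 1.08 and 6.72 CPM in wt and between 0.0621 and 0.52 CPM in deficient libraries, with *Dntt* at 0 in all libraries. Mast cell and basophil markers measured 20.9, 90.1 and 26.0 CPM among wt embryos against 13, 45.4 and 35.5 CPM among deficient embryos, and were thus highest in wt replicate 2 as the members were. Erythroid markers lay between 2270 and 2640 CPM in wt and 2190 and 2790 CPM in deficient libraries, megakaryocyte markers between 70.7 and 104 CPM and 63.6 and 89.7 CPM, and endothelial and stromal markers between 16.4 and 45.8 CPM and 6.77 and 8.75 CPM. The part of these cells in the levels of the members was not tested.

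The genes whose levels over the 6 libraries were most like the mean of the granulocyte regulators were *Gpr141*, *Tfec*, *Anxa3*, *Hdc* and *Card9*, with a root mean square difference of centred log2(CPM + 0.1) between 0.14 and 0.18, where the median over 11611 genes with at least 1 CPM was 1.39. *Tfec* measured 4.09, 41.2 and 8.16 CPM among wt embryos against 1.43, 5.03 and 5.21 CPM among deficient embryos. Most like the mean of the monocyte regulators were *BC035044*, *Nrp1*, *Nlrc4*, *Parp8* and *Peli2*, with a difference between 0.13 and 0.16 against a median of 1.48. *Parp8* measured 13.3, 73.3 and 28.8 CPM among wt embryos against 3.70, 7.19 and 7.64 CPM among deficient embryos. Since they were picked for their likeness over these 6 libraries, both groups of genes peaked in wt replicate 2 and parted in the deficient embryos as the regulators' means did. There *Tfec* in replicates 2 and 3 exceeded wt replicate 1 and *Parp8* did not. This restates the members' pattern and adds no separate observation.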

How the data were processed

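Stranded mRNA libraries of 3 wt and 3 hnRNP L deficient embryos (day 14.5) gave paired-end reads. The authors aligned them to GRCm38 (mm10) with TopHat2 2.0.10, and deposited raw counts per Ensembl gene (HTSeq) and per exon bin (DEXSeq script). Options and annotation release are not given in the sources used here. For deficient replicate 1, exon bins were not analysed here. Reads not assigned to a gene were left out.

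Genes were tested in edgeR 4.0.16 under R 4.3.3 (TMM, default expression filter, robust quasi-likelihood test, Benjamini-Hochberg adjustment), which kept 14396 of 38293 genes. Identifiers matched a symbol for 94.9%. RPKM used the union of exons in GENCODE M21. Bins averaging 10 or more reads entered diffSpliceDGE. Exact permutation tests used log2(CPM + 0.1). Scripts were tested on simulated data. Labels do not say how embryos relate, so p-values measure the spread between these embryos. The members and all gene lists were chosen with earlier results of these data known. Named from each list were the 2 called genes with the smallest p and the 2 most abundant others, plus the 5 genes most like each lineage's mean, and further genes named after their values were seen (called partners and effectors, *Ltf*, *Ngp*, *Camp*, *Itgam*, *Slamf1* and *Procr*). Alternatives were DESeq2 1.42.0, limma 3.58.1 (voom with sample weights), other scaling and filters, and leaving out each library.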

Additional observations from a re-analysis of the deposited data

How the results depend on the processing

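No paired analysis was possible because replicate numbers were given in the order of deposition, and the embryo numbers in the labels share their first part for only 1 pair of a wt and a deficient embryo. The count of members called lower, 2 in edgeR, was 5 with DESeq2, 4 with limma-voom and 1 (*Irf5*) without the filter on low counts, and between 0 and 6 with each library left out (0 without wt replicate 3 or any of the 3 deficient replicates, 6 without wt replicate 1). The cause was not tested. Relatives, partners and effectors called lower were 14, with 28 in DESeq2, 27 in limma-voom, 9 without the filter and between 0 and 31 with each library left out, and those called higher were 2, with 4, 5 and between 0 and 4 for DESeq2, limma-voom and left-out libraries. Members with the larger wt spread were 9, and 7 without wt replicate 2. The balance of 1.06 was 0.45 at log2(CPM + 1) and between 0.78 and 1.39 with each library left out. *Cebpb*, never called, turned to 0.02 with limma-voom, 0.25 without wt replicate 2 and 0.28 in deficient replicate 1 against wt replicate 1, and *Cebpe* to 0.29 without wt replicate 2, their ranges with each library left out being -0.93 to 0.25 and -2.4 to 0.29. Members called higher, and member exon bins called, stayed at 0 in every alternative. Precision was limited by the spread between 3 embryos a group and, for *Klf4*, by 2 to 26 reads.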
